A study of Mus musculus with 6 samples.

Results

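The genes described here encode the enzymes that write and erase methyl groups on histones and DNA and that remove acetyl groups from histones, together with UHRF1 and SUV39H1. They were chosen by name from the deposited count table: the HDAC, SIRT, KDM, KMT, DNMT, TET, EZH and SETD families plus those 2 genes. Of 31456 rows 66 matched, and 63 were kept as members after 2 pseudogene symbols and 1 gene of the Y chromosome were left out. RNA was sequenced from the human colorectal carcinoma cell line HCT116, with 3 libraries of parental and 3 of oxaliplatin-resistant cells. Oxaliplatin is a platinum drug that damages DNA. How the resistant cells were selected, whether they are 1 clone, whether drug was present at harvest and whether the 3 libraries of a form came from separate cultures was not given by the labels. The p-values therefore measure spread between libraries, which may be technical. The labels name mouse as the organism, whereas the tables carry human gene identifiers, and the values were read as human.

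Chromatin carries 2 layers of enzymatic marks that these genes control. Histone deacetylases take acetyl groups off lysines and are known mainly as parts of repressor complexes. Lysine methyltransferases and demethylases set methyl marks whose effect depends on the residue: H3K4 methylation is typical of active promoters and enhancers, H3K9 and H3K27 methylation of silenced chromatin, and H3K36 methylation of transcribed gene bodies. DNMT enzymes methylate cytosines in CpG sites, and TET enzymes oxidise that methyl group on the way to its removal. In colorectal cancer DNA methylation of CpG islands is a well-known route of gene silencing.

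Library totals ran from 20246878 to 32138423 counts. A floor of 3 counts equalled 0.0933 to 0.148 CPM, the count scaled to library size. Such floors cover counting error only. Parental replicate 2 stood apart from its group: its count profile differed from those of parental replicates 1 and 3 with a chi-square of 11.3 and 11.0 per gene, against 2.01 between those libraries. Resistant replicate 2 did so to a lesser degree, at 4.18 and 4.51 against resistant replicates 1 and 3, and 2.69 between those. Group means below are given ± SD over 3 libraries. The epithelial markers EPCAM, KRT8, KRT18, KRT19 and CDH1 were expressed in both forms, CDX2 was at 11.0 CPM in parental and 10.3 CPM in resistant cells, and VIL1 and CDX1 had at most 4 and 1 counts in any library. Of these 8 markers 6 were tested, of which 3 fell, 2 rose and 1 did not pass, and their sum was 2765 to 3156 CPM in parental and 2577 to 2722 CPM in resistant libraries, lower in every resistant one. Summed over 8 markers of fibroblasts, endothelium and leukocytes the level was 0 to 0.263 CPM in parental and 0.347 to 0.479 CPM in resistant libraries, with DCN, LUM and CD3E at 0 in every parental library. COL1A1 was the exception in that list, at 24.3 and 41.7 CPM (edgeR adjusted p = 3.3e-06). The part of either marker list in any result was not tested. In bulk RNA, fewer cells of a type and less RNA per cell cannot be told apart.

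Most differences in the modifier genes between the forms were small. Of 62 members tested with edgeR's quasi-likelihood test 31 had an adjusted p under 0.05, beside 53.8% of all 16605 tested genes. They divided into 18 that were higher and 13 that were lower in the resistant cells, where 27.3% of all tested genes were higher and 26.5% lower. With a change of at least 1.5-fold as well, 4 members were higher (HDAC10, SIRT4, KDM3A and KDM7A) and none was lower. Just inside that line were KDM3A at 1.51-fold and KDM7A at 1.53-fold, and just outside it SUV39H1 at 1.48-fold, KMT2B at 1.47-fold, HDAC9 at 1.44-fold and KDM6B at 1.40-fold. Without parental replicate 1 the count of lower members past 1.5-fold was 2, and it was 1 without parental replicate 3 and without resistant replicate 1 or 2. Over all tested genes 18.5% met that rule, 11.7% in the higher and 6.74% in the lower direction. The median size of a member's log2 fold change was 0.14, beside 0.27 over all tested genes. The groups did not overlap in CPM for 39 of the 62 members, and for 61.2% of all tested genes. The remaining member, KDM4E, had 1 count in all 6 libraries together and was not tested. All 62 tested members had at least 19 counts in every library.

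Small changes of this kind are sensitive to how libraries are scaled. When libraries were scaled by size alone, without TMM factors, the median over all tested genes moved on the log2 scale from 0.016 to 0.11, and the members past the threshold were 26 higher and 5 lower. The share of higher calls then rose from 58.1% to 83.9% among members and from 50.8% to 65.3% among all genes. On the deposited length-scaled values, tested with limma at either pseudocount, 18 members were higher and 4 lower, at 81.8% higher, beside 57.4% and 57.5% of all genes called there at pseudocounts of 0.1 and 1. No member past the threshold changed direction in any of the 15 alternatives. The count of lower members was 8 without parental replicate 1 and 7 without resistant replicate 1. Over all genes 4088 and 3797 were lower there, against 4399 in the main fit. Of the 31 calls 19 were kept whichever library was left out, and the 12 that were not are named below with the libraries concerned. The lists of other genes given below were counted on the TMM scale and not under other scalings, so small shifts in them carry the same limit.

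**Figure D1:**
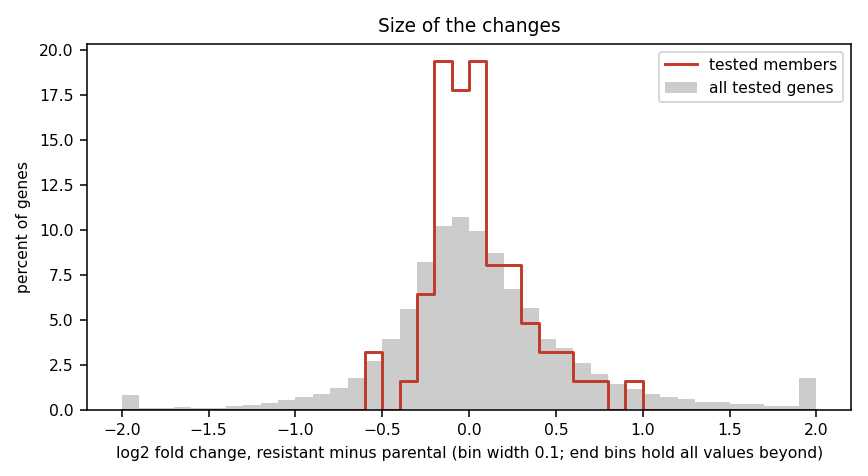
Share of genes (percent, y axis) by log2 fold change, resistant minus parental (x axis, bins of 0.1; the end bins hold all values beyond), for all tested genes (grey bars) and the 62 tested members (red line). The members lie between -0.57 and 0.92, inside the spread of all genes.

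**Figure D2:**
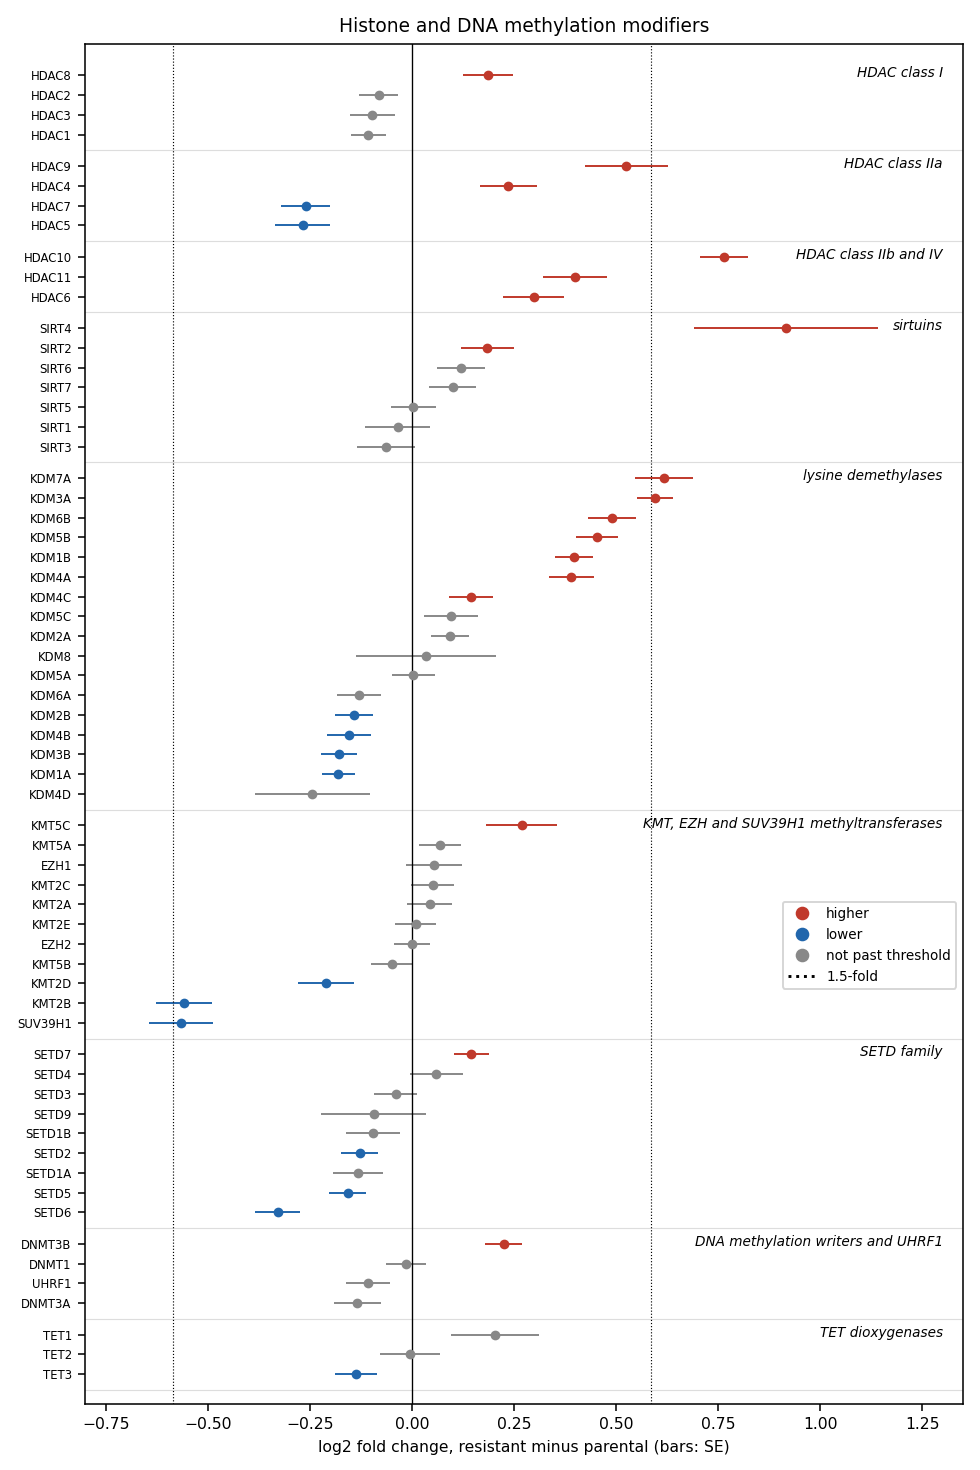
Fitted log2 fold change with its SE (x axis) for each tested member, grouped by class; red and blue points passed the adjusted p of 0.05, grey points did not, and dotted lines mark a 1.5-fold change. The 4 members beyond the right dotted line are HDAC10, SIRT4, KDM7A and KDM3A, and none lies beyond the left one.

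Levels between genes were compared on the second deposited table, whose values are scaled to gene length and are taken here as FPKM. HDAC1 had the highest level of the members in the parental cells at 211 ± 2.93 FPKM (SD, n = 3), followed by HDAC2 at 144 ± 4.72, DNMT1 at 109 ± 7.05 and KDM1A at 94.2 ± 1.34 FPKM. Each of these 4 stood clear of the next in every parental library. UHRF1, HDAC3, SETD5 and EZH2 followed at means of 64.2, 60.3, 55.5 and 53.7 FPKM, and neighbours in that order overlapped. At the other end of the tested members were TET1 at 0.567 ± 0.0153 FPKM, SIRT4 at 1.23 ± 0.183 FPKM and KDM4D at 1.34 ± 0.117 FPKM, with SIRT4 and KDM4D overlapping and TET1 below both. Summed over the members, 0.441% to 0.452% of raw counts fell in parental and 0.470% to 0.479% in resistant libraries. These shares are not TMM-scaled, and the TMM factors were 0.958 to 0.975 in parental and 1.03 to 1.04 in resistant libraries. On the TMM scale the median log2 fold change of the members was 0.0031.

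**Figure D3:**
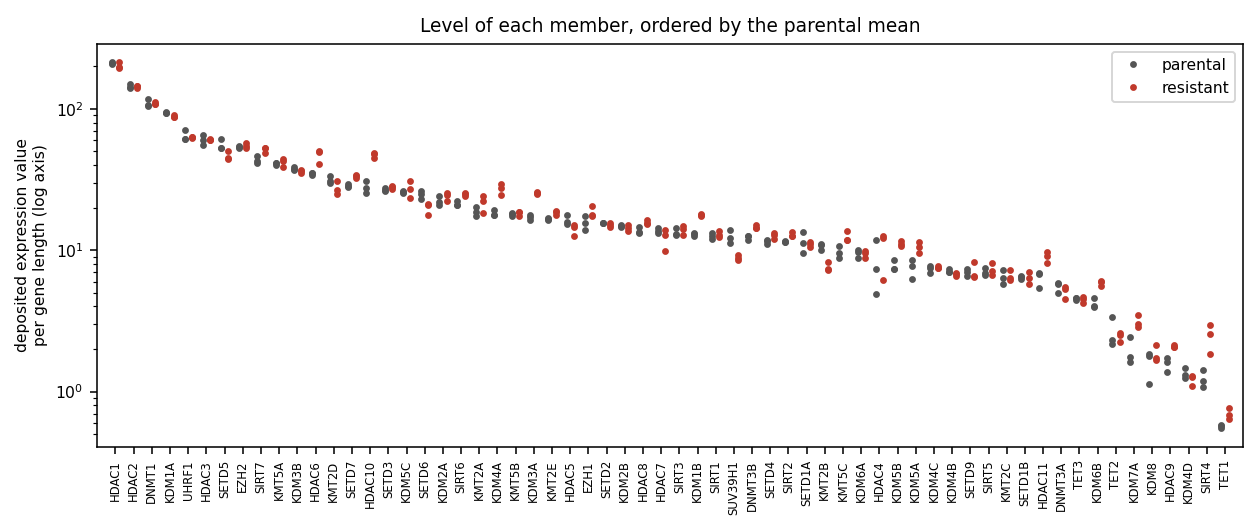
Deposited length-scaled expression value (y axis, log scale, taken as FPKM) of each tested member in the 3 parental (grey) and 3 resistant (red) libraries, ordered by the parental mean. HDAC1 is highest at 211 and TET1 lowest at 0.567 in the parental cells, and the order is largely shared by both forms.

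Neither gene of maintenance DNA methylation passed the test, and 1 of the 2 de novo enzymes rose. DNMT1 copies methylation onto the daughter strand after replication. Its level was 373, 409 and 367 CPM in parental replicates 1, 2 and 3 and 379.6, 386 and 373 CPM in resistant replicates 1, 2 and 3. All 3 resistant values lay within the parental range, and the gene differed by log2 -0.014 ± 0.049 (SE) with an edgeR adjusted p of 0.83. UHRF1, which recognises hemimethylated DNA and brings DNMT1 to it, had 214, 244 and 216 CPM in parental and 210.1, 208 and 207 CPM in resistant libraries. Every resistant library was below every parental one, most widely against parental replicate 2, yet the difference of -0.11 ± 0.053 (SE) did not pass (edgeR adjusted p = 0.11). UHRF1 passed with the replicate block (edgeR adjusted p = 0.039, within 0.039 to 0.84 over all alternatives). DNMT3B, a de novo methyltransferase, rose from 70.7, 71.0 and 68.5 CPM to 80.7, 84.1 and 80.8 CPM. The groups were apart, and the rise was 1.17-fold (log2 0.22 ± 0.045 (SE), edgeR adjusted p = 0.0014). DNMT3A, the other de novo enzyme, had 33.7, 31.6 and 31.3 CPM and 29.1, 30.4 and 28.6 CPM. Its groups did not overlap either, in the opposite direction, with a log2 fold change of -0.13 ± 0.057 (SE) and an edgeR adjusted p of 0.068. It passed with RLE factors (edgeR adjusted p = 0.050), with the replicate block (edgeR adjusted p = 0.041) and without parental replicate 2 (edgeR adjusted p = 0.040, within 0.040 to 0.59 over all alternatives). DNMT3L was not analysed here.

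On the FPKM scale DNMT1 made up 85.9% ± 0.699 of the summed DNMT1, DNMT3A and DNMT3B level in the parental and 84.7% ± 0.342 in the resistant libraries (SD, n = 3). DNMT3B held 9.75% ± 0.453 in the parental and 11.3% ± 0.0261 in the resistant libraries. DNMT3A held 4.37% ± 0.296 and 3.94% ± 0.354 in the same order.

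The TET genes, which encode the oxidases of 5-methylcytosine, differed by at most 1.15-fold. TET1 had 5.49, 5.36 and 5.45 CPM in parental and 5.75, 6.19 and 6.82 CPM in resistant libraries. Each resistant value was the higher, by log2 0.20 ± 0.11 (SE), but the gene passed on library sizes alone (edgeR adjusted p = 0.034, within 0.034 to 0.47 over all alternatives) and not with TMM factors (edgeR adjusted p = 0.13). TET2 had 23.8, 22.4 and 20.7 CPM and 20.5, 23.6 and 22.8 CPM, which overlapped (edgeR adjusted p = 0.96). TET3 was lower in the resistant cells, at 45.0, 48.8 and 47.6 CPM against 52.1, 51.2 and 52.4 CPM, with a log2 fold change of -0.14 ± 0.051 (SE) (edgeR adjusted p = 0.041). That call was lost without parental replicate 1 or 3 or without resistant replicate 1 or 3 (edgeR adjusted p = 0.085, 0.084, 0.17 and 0.084), within 0.016 to 0.82 over all alternatives.

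Among 8 methyl-CpG readers and genes of 5-methylcytosine repair 3 rose, 3 fell and 2 did not pass, with a median log2 fold change of 0.053. The share past the threshold was 75%, beside 53.8% of all tested genes. MBD4, a glycosylase that removes thymine left by deamination of methylated cytosine, fell 1.95-fold from 21.8 ± 1.92 CPM to 11.1 ± 0.405 CPM (adjusted p by edgeR, 8.9e-07). TDG, the glycosylase that excises the oxidised bases made by TET enzymes, fell 1.25-fold. UHRF2, the paralog of UHRF1, rose 1.29-fold (edgeR adjusted p = 6.5e-05). A list of 16 germline genes known to be kept silent by DNA methylation in somatic cells had 11 rows, of which 3 had enough counts to test and none passed. Without parental replicate 2 the count was 1, a lower gene. MAGEB2 was at 152 CPM in parental and 153 CPM in resistant cells, and MAGEA3 at 103 and 101 CPM, with edgeR adjusted p-values of 0.86 and 0.69. MAGEA6 was at 1.64 and 0.838 CPM (edgeR adjusted p = 0.084), and MAGEA genes are close copies whose reads can be divided wrongly. The 8 untested germline genes had at most 12 counts in any library.

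Class I histone deacetylases form the catalytic core of the SIN3, NuRD, CoREST and NCoR complexes, and their 3 most abundant genes did not pass the threshold. HDAC1 had 336, 333 and 347 CPM in parental and 325, 305 and 313 CPM in resistant libraries. The resistant values were all lower, by log2 -0.11 ± 0.043 (SE), with an edgeR adjusted p of 0.054. HDAC2, its close paralog, had 189.9, 182 and 195 CPM and 185, 171 and 179 CPM with overlapping groups (edgeR adjusted p = 0.16). Without parental replicate 2 both passed (edgeR adjusted p = 0.014 for HDAC1 and 0.037 for HDAC2), within 0.014 to 0.82 and 0.037 to 1.0 over all alternatives. HDAC3, the enzyme of NCoR complexes, had 78.4, 88.3 and 80.5 CPM and 78.3, 75.0 and 78.1 CPM. Its resistant values all lay under the lowest parental one, those of resistant replicates 1 and 3 only just, and it did not pass (edgeR adjusted p = 0.15). HDAC1 also passed with RLE factors (edgeR adjusted p = 0.039), with the replicate block (edgeR adjusted p = 0.018) and with DESeq2 (adjusted p = 0.017). Leaving out parental replicate 2 thus gave 2 lower genes in class I against 0. HDAC8, known for deacetylating the cohesin subunit SMC3, rose 1.14-fold (edgeR adjusted p = 0.024), a call lost without parental replicate 1 or resistant replicate 3 (edgeR adjusted p = 0.11 and 0.11, within 0.0024 to 0.17 over all alternatives). The shares of HDAC1, HDAC2, HDAC3 and HDAC8 in their summed FPKM were 49.2% ± 0.637, 33.5% ± 1.25, 14.0% ± 0.951 and 3.21% ± 0.185 in the parental libraries (SD, n = 3). In the resistant libraries the shares were 47.7% ± 1.69, 34.2% ± 1.17, 14.3% ± 0.347 and 3.74% ± 0.187.

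Class IIa enzymes shuttle between nucleus and cytoplasm and repress MEF2 factors. All 4 passed, where 53.8% of all tested genes did, and they divided evenly in direction. HDAC9 rose 1.44-fold, from 5.41, 4.78 and 5.55 CPM to 7.51, 7.42 and 7.63 CPM (adjusted p by edgeR, 0.0010), and the groups did not overlap. HDAC4 rose 1.18-fold from 29.0 ± 2.41 CPM to 34.0 ± 1.93 CPM (adjusted p by edgeR, 0.014). The HDAC4 call was lost without parental replicate 1 or resistant replicate 3 (edgeR adjusted p = 0.052 and 0.068, within 0.0013 to 0.57 over all alternatives). HDAC5 fell 1.20-fold, from 48.2 ± 4.06 CPM to 40.1 ± 1.93 CPM, and HDAC7 fell 1.20-fold, from 44.6 ± 2.36 CPM to 37.2 ± 1.54 CPM (adjusted p by edgeR, 0.0056 and 0.0028). These 4 calls were not made on the FPKM values with limma, where the log2 fold changes at a pseudocount of 0.1 were 0.40, 0.38, -0.20 and -0.17 for HDAC9, HDAC4, HDAC5 and HDAC7. Over all alternatives the adjusted p ranged over 2.4e-04 to 0.095, 2.2e-05 to 0.24 and 4.6e-05 to 0.47 for HDAC9, HDAC5 and HDAC7.

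All 3 genes of classes IIb and IV rose, where 27.3% of all tested genes did. HDAC10, which deacetylates the polyamine acetylspermidine, was at 30.6, 28.0 and 27.8 CPM in parental and 48.3, 50.9 and 47.6 CPM in resistant libraries. The lowest resistant value lay well above the highest parental value, a rise of 1.70-fold (log2 0.76 ± 0.059 (SE), edgeR adjusted p = 6.5e-07). HDAC11, a fatty-acyl hydrolase and the lone class IV enzyme, rose 1.32-fold from 10.3 ± 0.782 CPM to 13.7 ± 0.238 CPM (adjusted p by edgeR, 0.0011). HDAC6, the cytoplasmic deacetylase of tubulin, rose 1.23-fold from 69.2 ± 6.69 CPM to 85.2 ± 6.27 CPM, and its groups came closest, at 76.9 CPM in parental replicate 2 and 78.4 CPM in resistant replicate 3 (edgeR adjusted p = 0.0063). These 3 calls were kept in each of the 15 alternatives.

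The sirtuins deacylate proteins with NAD as a cosubstrate, SIRT1, SIRT6 and SIRT7 in the nucleus, SIRT2 mainly in the cytoplasm, and SIRT3, SIRT4 and SIRT5 in mitochondria. SIRT4 rose 1.89-fold, the largest fold among the members and on few reads. It had 24, 40 and 19 counts in parental replicates 1, 2 and 3 and 57, 65 and 40 counts in resistant replicates 1, 2 and 3, equal to 0.902, 1.30 and 0.967 CPM and 2.29, 2.22 and 1.54 CPM. The highest parental and the lowest resistant library were close, and the rise on the log2 scale was 0.92 ± 0.23 (SE) (edgeR adjusted p = 0.0049). Leaving out each library in turn gave log2 fold changes of 0.80 to 1.11, all past the threshold. SIRT2 rose 1.14-fold (edgeR adjusted p = 0.031), but the call was lost without parental replicate 1 or 3 or without any 1 of the resistant libraries (edgeR adjusted p = 0.17, 0.089, 0.080, 0.059 and 0.098), within 0.0029 to 0.21 over all alternatives. SIRT1, SIRT3, SIRT5, SIRT6 and SIRT7 did not pass, with log2 fold changes of -0.035, -0.064, 0.0030, 0.12 and 0.10.

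Of 23 subunits of HDAC corepressor complexes 8 fell, 1 rose and 14 did not pass, with a median log2 fold change of -0.033, and 3 rose without parental replicate 2. In the main fit 39.1% of them passed, beside 53.8% of all tested genes. TBL1XR1, a scaffold of the NCoR complex, fell 1.28-fold. The NuRD subunits MBD3, MTA2 and CHD4 fell 1.20-fold, 1.19-fold and 1.28-fold (edgeR adjusted p = 6.8e-04 for CHD4, the highest of the 4 genes). Of the other NuRD subunits listed MTA1 and MTA3 fell 1.14-fold and 1.16-fold, and CHD3, MBD2, GATAD2A and GATAD2B did not pass. RBBP4 and RBBP7, also subunits of NuRD and SIN3 complexes, were counted among the PRC2 partners below. There RBBP4 rose 1.30-fold and RBBP7 did not pass (edgeR adjusted p = 3.4e-05 and 0.33).

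**Figure D4:**
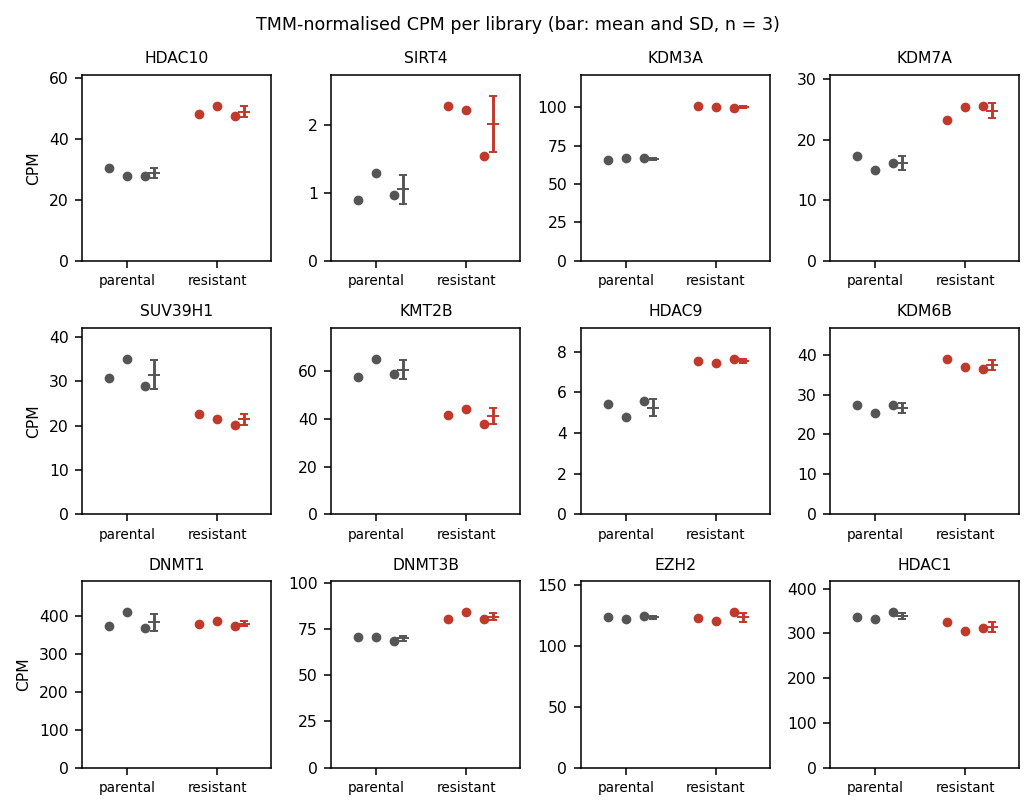
TMM-normalised CPM (y axis, starting at 0) of 12 members in each parental (grey) and resistant (red) library, with the mean and SD of 3 libraries beside the points. HDAC10, SIRT4, KDM3A, KDM7A, HDAC9, KDM6B and DNMT3B are higher and SUV39H1 and KMT2B lower in every resistant library, while DNMT1 and EZH2 overlap between the forms and HDAC1 is lower by a small step.

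Of 17 lysine demethylases tested, the largest class here, 7 rose, 4 fell and 6 did not pass, so that 64.7% passed beside 53.8% of all tested genes. Most of the family are JmjC oxygenases that need iron and 2-oxoglutarate, and KDM1A and KDM1B use flavin instead. KDM3A, which removes mono- and dimethyl marks from H3K9 and is a known hypoxia-induced gene, had 65.4, 67.1 and 66.7 CPM in parental and 101, 100.3 and 99.6 CPM in resistant libraries. The spread within each group was under 2 CPM, and the rise was 1.51-fold (log2 0.59 ± 0.043 (SE), edgeR adjusted p = 4.0e-07). KDM7A, a demethylase of H3K9 and H3K27, had 17.4, 15.0 and 16.2 CPM and 23.3, 25.4 and 25.6 CPM. Its groups were apart and it rose 1.53-fold (log2 0.62 ± 0.071 (SE), edgeR adjusted p = 2.0e-05). It did not pass on FPKM without a filter (limma adjusted p = 0.051, within 7.6e-15 to 0.051 over all alternatives).

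Another 4 demethylases rose by 1.31-fold to 1.40-fold. KDM6B, a demethylase of H3K27 trimethylation, rose 1.40-fold, from 27.3, 25.3 and 27.4 CPM to 38.9, 36.8 and 36.4 CPM (adjusted p by edgeR, 2.6e-05). KDM5B, which removes H3K4 methylation, rose 1.37-fold from 40.1, 42.7 and 40.1 CPM to 55.9, 55.8 and 56.8 CPM (adjusted p by edgeR, 1.5e-05). KDM1B, a flavin-dependent H3K4 demethylase, rose 1.32-fold from 49.7 ± 0.972 CPM to 65.4 ± 0.814 CPM (adjusted p by edgeR, 2.4e-05). KDM4A, an enzyme of trimethylated H3K9 and H3K36, rose 1.31-fold from 69.3 ± 3.99 CPM to 90.8 ± 3.71 CPM (adjusted p by edgeR, 9.7e-05). In each of these genes every resistant library was above every parental one.

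Close paralogs of several of these genes fell or did not pass. KDM1A, the more abundant flavin enzyme, fell 1.13-fold from 264 ± 3.03 CPM to 233 ± 3.53 CPM (adjusted p by edgeR, 0.0026). That call was not made on library sizes alone (log2 -0.086, edgeR adjusted p = 0.086, within 1.9e-05 to 0.13 over all alternatives). Nor was it made in any FPKM setting (limma adjusted p = 0.087 to 0.13). KDM3B fell 1.13-fold where KDM3A rose, from 186 ± 6.46 CPM to 165 ± 4.18 CPM (adjusted p by edgeR, 0.0052). It too was not called on library sizes alone (log2 -0.085, edgeR adjusted p = 0.11, within 3.8e-04 to 0.50 over all alternatives) or in any FPKM setting (limma adjusted p = 0.37 to 0.50). KDM6A, the X-linked paralog of KDM6B, had 36.6 ± 1.28 CPM and 33.5 ± 0.898 CPM (edgeR adjusted p = 0.064). It passed without parental replicate 3, with RLE factors and with the replicate block (edgeR adjusted p = 0.047, 0.048 and 0.038, within 0.038 to 0.94). KDM5A and KDM5C did not pass, at log2 fold changes of 0.0032 and 0.10, although KDM5C passed without parental replicate 2 (log2 fold change 0.17, edgeR adjusted p = 0.011, within 0.011 to 0.74). KDM5C also passed on library sizes alone and with the replicate block (edgeR adjusted p = 0.025 and 0.033). KDM5B held 18.8% ± 1.19 of the summed FPKM of KDM5A, KDM5B and KDM5C in the parental and 22.9% ± 1.11 in the resistant libraries (SD, n = 3).

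The other called demethylases changed by at most 1.11-fold. KDM4C rose 1.11-fold (edgeR adjusted p = 0.040), and its call was lost whichever of the 6 libraries was left out (edgeR adjusted p = 0.12, 0.060 and 0.080 without parental and 0.062, 0.10 and 0.11 without resistant replicates 1, 2 and 3). KDM4B fell 1.11-fold (edgeR adjusted p = 0.032), a call kept when parental replicate 3 was left out and lost for each other library (edgeR adjusted p = 0.060 and 0.060 without parental replicates 1 and 2, and 0.072, 0.058 and 0.11 without resistant replicates 1, 2 and 3). The H3K36 demethylase gene KDM2B fell 1.10-fold (edgeR adjusted p = 0.022), and its call was lost without parental replicate 1 and without resistant replicate 1 or 3 (edgeR adjusted p = 0.051, 0.073 and 0.085). Over all alternatives the adjusted p ranged over 0.0030 to 0.72 for KDM4C, 0.013 to 0.52 for KDM4B and 0.0073 to 0.57 for KDM2B. KDM2A, KDM4D and KDM8 did not pass, at log2 fold changes of 0.094, -0.24 and 0.034. KDM2A passed without parental replicate 2, with the replicate block and on library sizes alone (edgeR adjusted p = 0.028, 0.037 and 0.0038, within 0.0038 to 0.50).

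Of 7 JmjC proteins outside the KDM names 4 fell, 1 rose and 2 did not pass. This put 71.4% past the threshold, beside 53.8% of all tested genes. JMJD1C, a paralog of KDM3A, fell 1.16-fold and RIOX1, a nucleolar oxygenase, rose 1.43-fold, while RIOX2 and HR fell 1.15-fold and 1.16-fold (edgeR adjusted p = 0.018 for RIOX2, the highest of the 4 genes). The strand setting of the counting is not given, so reads of a gene and of an antisense or divergent partner cannot be told apart. KDM4A-AS1 had 21, 29 and 11 counts in the parental and 33, 44 and 36 counts in the resistant libraries, and KDM7A-DT had 25, 27 and 22 and 31, 51 and 45 counts. Both rose beside KDM4A and KDM7A (edgeR adjusted p = 0.0091 and 0.017), whose own counts were at least 1331 and 318 in every library. KMT2E-AS1, the third partner transcript tested, did not pass, like KMT2E (log2 fold change 0.10, edgeR adjusted p = 0.81).

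Among the methyltransferases that are members the largest changes were falls of an H3K9 and an H3K4 enzyme. SUV39H1, which trimethylates H3K9 in heterochromatin, had 30.8, 35.0 and 28.9 CPM in parental and 22.6, 21.4 and 20.2 CPM in resistant libraries. All resistant values were lower, by 1.48-fold (log2 -0.57 ± 0.077 (SE), edgeR adjusted p = 7.7e-05). Other H3K9 enzymes were outside the name rule and had no list of their own, and they were measured within a list of 17 further lysine methyltransferases. EHMT2, which encodes the H3K9 dimethylase G9a, fell 1.92-fold from 101 ± 6.51 CPM to 52.9 ± 3.07 CPM (adjusted p by edgeR, 1.5e-07). Its partner EHMT1 fell 1.18-fold, SETDB1 fell 1.24-fold and SUV39H2 fell 1.24-fold (edgeR adjusted p = 0.0032, 8.9e-04 and 0.0041). SETDB2 had 9.78 CPM in parental and 9.60 CPM in resistant cells (edgeR adjusted p = 0.88), and PRDM2, another H3K9 methyltransferase, had 21.6 and 21.8 CPM (edgeR adjusted p = 0.79). In the whole list 16 genes were tested, of which 7 fell, 2 rose and 7 did not pass, with a median log2 fold change of -0.045. Thus 56.25% passed, beside 53.8% of all tested genes. NSD1, an H3K36 methyltransferase, fell 1.43-fold, SMYD5 fell 1.41-fold and SMYD4 rose 1.31-fold (edgeR adjusted p = 4.3e-04 for SMYD4, the highest of the 3). EHMT1, SETDB1, SUV39H2, SETDB2 and PRDM2 were named after their values were seen.

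Of the KMT2 and SETD1 genes 2 fell and 5 did not pass, where 26.5% of all tested genes were lower. KMT2B, which methylates H3K4 at promoters, had 57.6, 65.1 and 59.0 CPM in parental and 41.7, 44.1 and 37.7 CPM in resistant libraries. The groups were apart, with a fall of 1.47-fold (log2 -0.56 ± 0.069 (SE), edgeR adjusted p = 3.4e-05). KMT2D, an enhancer methyltransferase, fell 1.16-fold from 202, 206 and 188 CPM to 157, 191 and 168 CPM with resistant replicate 2 above parental replicate 3 (edgeR adjusted p = 0.024). It lost its call without parental replicate 1 or 2 or without resistant replicate 1 or 3 (edgeR adjusted p = 0.064, 0.14, 0.11 and 0.081, within 1.3e-04 to 0.23 over all alternatives). KMT2A, KMT2C and KMT2E did not pass, at log2 fold changes of 0.044, 0.050 and 0.0087, and reads of KMT2C are uncertain because parts of the gene have near-identical copies elsewhere in the genome. SETD1A and SETD1B, the catalytic subunits of the SET1 complexes, did not pass at -0.13 and -0.10. Without parental replicate 3 SETD1A did (edgeR adjusted p = 0.047, within 0.014 to 0.86). It also passed with the replicate block and without a filter on low counts (edgeR adjusted p = 0.014 and 0.036). Of the summed FPKM of KMT2A to KMT2E, KMT2B held 12.8% ± 0.615 in the parental and 9.29% ± 0.371 in the resistant libraries (SD, n = 3).

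The enzymes KMT2A to KMT2D, SETD1A and SETD1B work with partner subunits, some shared by all of them and others not. Of 12 tested partners 8 fell, 2 rose and 2 did not pass, with a median log2 fold change of -0.17. The share that passed was 83.3%, beside 53.8% of all tested genes, of which 26.5% were lower. PAGR1 and PAXIP1, which belong to the KMT2C and KMT2D complexes, fell 1.49-fold and 1.36-fold. WDR82, a subunit of the SET1 complexes, fell 1.32-fold, and HCFC1 fell 1.17-fold (edgeR adjusted p = 0.0024 for HCFC1, the highest of the 4). The shared subunits divided evenly. WDR5 and DPY30 fell 1.14-fold and 1.11-fold (edgeR adjusted p = 0.0036 and 0.045). RBBP5 and ASH2L rose 1.12-fold and 1.09-fold (edgeR adjusted p = 0.018 and 0.0498). The shared subunits were named after their values were seen.

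Neither Polycomb H3K27 methyltransferase passed the test. EZH2, the main catalytic subunit of Polycomb repressive complex 2 (PRC2) in dividing cells, had 124, 123 and 125 CPM in parental and 124, 120.5 and 128 CPM in resistant libraries. The parental values fell inside the resistant range, and the means were 124 and 124 CPM (SE of the log2 fold change 0.043, edgeR adjusted p = 1.0). EZH1, its paralog, had 42.2, 46.8 and 39.6 CPM and 44.0, 47.2 and 42.7 CPM, overlapping throughout (edgeR adjusted p = 0.53). EZH2 held 77.4% ± 2.24 of their summed FPKM in the parental and 74.9% ± 2.48 in the resistant libraries. Of 10 PRC2 partners 3 rose, 2 fell and 5 did not pass, with a median log2 fold change of 0.079. That is 50% past the threshold, beside 53.8% of all tested genes. PHF19, an accessory subunit that recruits PRC2 to chromatin, fell 1.92-fold from 66.8 ± 4.10 CPM to 34.7 ± 2.71 CPM (adjusted p by edgeR, 3.5e-07). JARID2, another accessory subunit, rose 1.33-fold, the histone-binding RBBP4 rose 1.30-fold and EED, a core subunit, rose 1.10-fold (edgeR adjusted p = 9.5e-05, 3.4e-05 and 0.044).

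The remaining histone methyltransferases among the members changed by at most 1.26-fold. SETD6, known for methylating the NF-kB subunit RELA, fell 1.26-fold from 30.1 ± 1.01 CPM to 24.0 ± 0.334 CPM with no overlap (edgeR adjusted p = 3.7e-04), and did not pass on FPKM without a filter (limma adjusted p = 0.061, within 1.9e-06 to 0.061 over all alternatives). KMT5C, a di- and trimethylase of H4K20, rose 1.20-fold (edgeR adjusted p = 0.020), a call lost without parental replicate 2 or resistant replicate 2 (edgeR adjusted p = 0.053 and 0.092, within 0.0046 to 0.10 over all alternatives), which left no rise among the KMT, EZH and SUV39H1 genes in the first case. SETD2, the H3K36 trimethylase, fell 1.09-fold (edgeR adjusted p = 0.031), and lost its call without parental replicate 1 and without resistant replicate 1 or 2 (edgeR adjusted p = 0.065, 0.15 and 0.053, within 0.0081 to 0.69). SETD5 fell 1.12-fold (edgeR adjusted p = 0.011; 0.065 without resistant replicate 1, within 0.0011 to 0.23). SETD7, which methylates H3K4 and non-histone proteins, rose 1.11-fold (edgeR adjusted p = 0.013), and lost its call without parental replicate 1 or 3 and without resistant replicate 3 (edgeR adjusted p = 0.066, 0.075 and 0.075, within 5.3e-04 to 0.075). The H4K20 enzymes KMT5A and KMT5B, the actin histidine methyltransferase SETD3, and SETD4 and SETD9 did not pass, at log2 fold changes of 0.068, -0.050, -0.040, 0.059 and -0.093.

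The opposing acetyltransferases and the enzymes that supply cofactors gave context for these values. Of 10 histone acetyltransferases 4 fell, 2 rose and 4 did not pass, with a median log2 fold change of -0.12. Past the threshold were 60%, beside 53.8% of all tested genes. KAT5, KAT2A and CREBBP fell 1.42-fold, 1.23-fold and 1.18-fold, and HAT1, which acetylates newly made H4, rose 1.13-fold (edgeR adjusted p = 0.0057 for HAT1, the highest of the 4). Among 15 tested genes of cofactor supply 6 fell, 4 rose and 5 did not pass, with a median of 0.0046. Here 66.7% passed, beside the same 53.8%. IDH1, which makes 2-oxoglutarate in the cytosol, fell 2.54-fold from 147 ± 5.76 CPM to 57.9 ± 1.13 CPM, and ACLY, which makes acetyl-CoA from citrate, fell 2.14-fold from 572 ± 47.4 CPM to 267 ± 11.1 CPM (adjusted p by edgeR, 8.0e-10 and 3.5e-08). ACSS2, which makes acetyl-CoA from acetate, fell 1.30-fold, and D2HGDH, which clears D-2-hydroxyglutarate, fell 1.25-fold (edgeR adjusted p = 1.5e-04 and 3.1e-04). MAT2A, which makes the methyl donor S-adenosylmethionine, was at 451 and 452 CPM (edgeR adjusted p = 0.93), and NAMPT, the limiting enzyme of NAD salvage on which sirtuins depend, at 189 and 199 CPM (edgeR adjusted p = 0.31). NMNAT2, an NAD synthase of the cytoplasm, was the gene of this list that rose by the largest fold, from 0.216 to 0.617 CPM. It had 8, 6 and 3 counts in parental and 11, 13 and 25 counts in resistant replicates 1, 2 and 3. Only its resistant libraries met the filter on low counts, so its call, 1 of the 4 rises, is not read as a result. MAT2A, NAMPT and NMNAT2 were named after their values were seen.

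DNMT1, UHRF1 and EZH2 are known to be expressed most in cycling cells, so genes of replication and proliferation were read beside them. Of 13 such genes 10 fell, none rose and 3 did not pass, with a median log2 fold change of -0.31, and 1 rose without parental replicate 2. Over all tested genes 53.8% passed and 26.5% were lower. CCNA2, MCM5, MKI67 and MCM3 fell 1.69-fold, 1.38-fold, 1.39-fold and 1.28-fold (edgeR adjusted p = 1.0e-04 for MCM3, the highest of the 4). Their part in the values of DNMT1, UHRF1 and EZH2 was not tested.

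**Figure D5:**
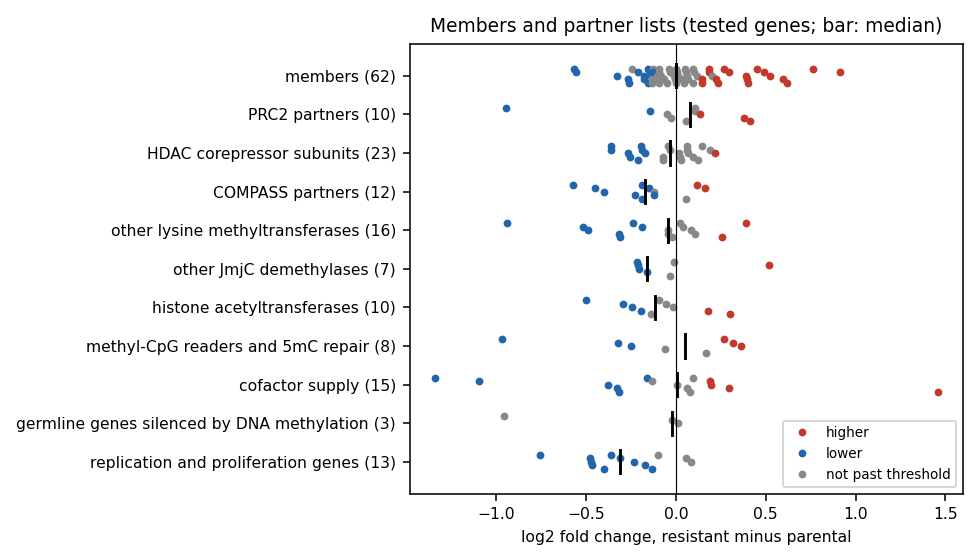
Log2 fold change, resistant minus parental (x axis), of every tested gene of the members and of 10 partner lists (rows, number tested in parentheses); red and blue points passed the adjusted p of 0.05, and the black bar is the median. The medians run from -0.31 for replication and proliferation genes to 0.079 for PRC2 partners, with the members at 0.0031.

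For some members the 2 deposited tables differed beyond scaling. If both held the same reads and used a fixed length per gene, FPKM divided by CPM would be nearly constant across libraries within a gene. For DNMT1 the highest of the 6 ratios was 1.03 times the lowest, and for HDAC1 1.06 times. For HDAC4 it was 2.19 times, with 7.36, 4.91 and 11.8 FPKM in the parental and 12.7, 6.11 and 12.2 FPKM in the resistant libraries. Resistant replicate 2 had the lowest HDAC4 FPKM of its group and the middle CPM, at 32.1, 34.0 and 36.0 CPM in resistant replicates 1, 2 and 3. For KDM5A it was 1.85 times: the gene had 8.59, 7.75 and 6.25 FPKM and 10.6, 9.51 and 11.4 FPKM, a log2 difference of 0.48 with limma (adjusted p = 0.021 at a pseudocount of 0.1, within 0.021 to 0.96 over all alternatives), beside 0.0032 on the counts. SIRT6 and SIRT7 were also called higher on FPKM (limma adjusted p = 0.016 and 0.019, within 0.0085 to 0.45 and 0.013 to 0.43) and not on the TMM-scaled counts. How the second table assigns reads to transcripts is not known here, and its part in these differences was not tested.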

How the data were processed

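RNA-seq libraries were prepared from total RNA with the SMARTER mRNA-Seq kit named in the labels' protocols. Samples were grouped and numbered by their titles. The authors deposited whole-number read counts per gene, not normalized, and a second table of length-scaled expression, taken here as FPKM computed by the authors. Its header names no unit, and TPM cannot be told apart from it. The sources used here give no aligner, counter, annotation or strand setting. The submitters' processing notes name the mouse builds GRCm38 and mm10, which do not match the human identifiers, so no coordinates or sequences were used.

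Counts were tested with edgeR 4.0.16 in R 4.3.3 (TMM, filterByExpr, robust glmQLFit and glmQLFTest, two-sided, Benjamini-Hochberg over 16605 genes, threshold 0.05). CPM are TMM-scaled, folds are fitted, and an SE is the log2 fold change over the square root of F. Gene models without an Ensembl identifier held 0.857% to 0.955% of the counts and stayed in the fit. An exact permutation of 3 against 3 cannot give a p below 0.1, so none was run. Alternatives were RLE factors, library sizes alone, DESeq2 1.42.0, other filters, a replicate block, each library left out, and limma 3.58.1 on log2(FPKM + 0.1) and log2(FPKM + 1) with a mean FPKM of at least 1 or no filter, a scale that understates the change of low genes. Lists without parental replicate 2 were counted as an alternative chosen after seeing the data. The edgeR fit was tested on simulated data.

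Members, classes and lists were chosen with earlier results of these data known. Values per library were set for members changed 1.5-fold, the DNMT, TET and EZH genes, UHRF1, SUV39H1 and HDAC1 to HDAC3, and up to 4 genes with the smallest adjusted p were named from each list. The values of 1 list gene are not reported here. Other genes with values per library were picked after their values were seen. Of the listed symbols 7 had no row and were not analysed.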

Additional observations from a re-analysis of the deposited data

How the results depend on the processing

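Of the 31 members past the threshold 12 kept their call and direction in all 15 alternatives, 19 lost the call in at least 1, and none changed direction. The call was gained in at least 1 alternative by 15 of the 31 other members. Members past the threshold numbered 15 on FPKM without a filter and 21 to 32 with a library left out. In all, 5450 genes passed on FPKM without a filter and 7666 to 9209 with a library left out, against 8933. Lower members numbered 5 with library sizes alone, 4 on FPKM at either pseudocount, 2 on FPKM without a filter, and 7 to 14 with a library left out. Over all genes the lower calls also changed, from 4399 to 3146 with library sizes alone. They numbered 2642 and 2629 on FPKM at pseudocounts of 0.1 and 1, 2234 without a filter, and 3797 to 4612 with a library left out. Members higher by 1.5-fold numbered 2 on FPKM at a pseudocount of 1 and 2 without a filter. Members lower by 1.5-fold numbered 1 without a filter on low counts and 0 to 2 with a library left out. The cause of these shifts was not tested, and fewer libraries enter where 1 is left out. Whether the replicate numbers pair the libraries is not given by the labels. Deviations from the group means cannot decide it, because they are not independent within a group of 3. They correlated across genes at 0.074, 0.14 and 0.010 for numbers 1, 2 and 3. Parental replicate 3 correlated more with resistant replicate 1, at 0.094, and the other unmatched pairs ranged from -0.15 to 0.0098. With the replicate block 38 members passed, 20 higher and 18 lower, and 9973 genes. Members not past the threshold that changed sign, with their log2 fold change there, were as follows, and none passed. With library sizes alone HDAC2 at 0.012, SIRT1 at 0.058, SIRT3 at 0.031, KMT5B at 0.044, EZH2 at 0.094, SETD3 at 0.054, SETD9 at 0.00032, DNMT1 at 0.081 and TET2 at 0.088. With RLE factors SIRT5 at -0.0078, KDM5A at -0.0076 and KMT2E at -0.0020. With DESeq2 SIRT5 at -0.016, KDM5A at -0.015 and KMT2E at -0.0098. Without a filter on low counts SIRT5 at -0.017, KDM5A at -0.017 and KMT2E at -0.011. With at least 1 CPM in 3 libraries EZH2 at 0.0077 and TET2 at 0.0020. On FPKM at a pseudocount of 0.1, with or without the filter, HDAC3 at 0.0045, SIRT1 at 0.039, SIRT3 at 0.051, KMT5B at 0.016, EZH2 at 0.036, SETD3 at 0.055, SETD9 at 0.0085 and DNMT1 at 0.0077. On FPKM at a pseudocount of 1 HDAC3 at 0.0043, SIRT1 at 0.036, SIRT3 at 0.048, KMT5B at 0.015, EZH2 at 0.035, SETD3 at 0.053, SETD9 at 0.0082 and DNMT1 at 0.0076. With each library left out the ranges were SIRT1 -0.12 to 0.018, SIRT5 -0.0075 to 0.011, KDM5A -0.040 to 0.030, KDM8 -0.10 to 0.13, KMT2A -0.013 to 0.10, KMT2C -0.00071 to 0.075, KMT2E -0.023 to 0.050, EZH1 -0.0046 to 0.12, EZH2 -0.023 to 0.021, DNMT1 -0.052 to 0.036 and TET2 -0.059 to 0.051. The cause was not tested. Depth limits SIRT4, TET1, KDM4D, KDM8, SETD9 and HDAC9, whose smallest library had 19 to 109 counts.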
